A study of Homo sapiens with 9 samples.

Results

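The metallothionein genes MT1E, MT1F, MT1X and MT2A were followed across 3 groups of HEK293 cells, a human embryonic kidney line. They were found by their gene symbols in the annotation of the array platform, which named 1 probe set (a set of array probes read as 1 signal) for each of them. They are 4 of 14884 genes that have a named probe set in the table. Naive cells, also labelled mock control and without cumate, made up the mock group (3 arrays). The GPR39 group (3 arrays) carried the label GPR39 Overexpressed and received 0.03 mg/mL cumate, a compound that turns on cumate-controlled transgenes. The agonist group (3 arrays) carried the same GPR39 Overexpressed label and received TC-G-1008, a synthetic GPR39 agonist, at 1 uM. The labels do not state whether the agonist group also had cumate, and they give no exposure time, no clone and no zinc dose for any group. They call the replicates biological but name no separate cultures, so the p-values here measure only the spread between these arrays, which may be technical.

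Metallothioneins are small cysteine-rich proteins that hold zinc and copper ions. Their transcription is driven by the zinc-sensing transcription factor MTF1, which binds metal response elements in their promoters when free zinc rises, so their transcripts are often taken as a readout of zinc inside cells. GPR39 is a G protein-coupled receptor that responds to zinc outside the cell. Metallothionein genes also respond to glucocorticoids, copper, cadmium and oxidative stress, and kidney epithelium is among the tissues that express them.

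The 4 genes lie in 1 cluster on chromosome 16. In the order of RefSeq genes, MT2A came first, then MT1E, MT1F and MT1X, with MT3 and MT4, the family members of the nervous system and of stratified epithelium, ahead of all of them. Of the 4 genes, MT2A and MT1X had a promoter sequence in the RefSeq table (GRCh38.p14). MT1E and MT1F had none there. The 250 bases before each annotated gene start are shown because they hold the elements through which metals act on these genes. Capitals mark the core of the metal response element, TGCACNC or TGCGCNC, searched on both strands, and both promoters lie on the plus strand, MT2A at chr16:56608334-56608583 and MT1X at chr16:56682220-56682469.
MT2A: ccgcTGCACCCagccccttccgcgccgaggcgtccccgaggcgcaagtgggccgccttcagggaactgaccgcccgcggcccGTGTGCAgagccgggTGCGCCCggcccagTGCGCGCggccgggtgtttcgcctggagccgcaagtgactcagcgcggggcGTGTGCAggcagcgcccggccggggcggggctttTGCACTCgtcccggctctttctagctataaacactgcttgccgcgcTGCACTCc
MT1X: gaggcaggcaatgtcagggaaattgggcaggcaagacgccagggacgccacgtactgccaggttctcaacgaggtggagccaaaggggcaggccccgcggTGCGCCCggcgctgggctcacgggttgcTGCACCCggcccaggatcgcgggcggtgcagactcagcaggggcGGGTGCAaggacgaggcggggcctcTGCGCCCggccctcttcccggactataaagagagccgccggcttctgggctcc
The MT2A promoter held 7 matches and the MT1X promoter 4. Among other family members in that table, MT1H, whose signal lay too low to be tested, held 8, and MT1B and MT4 held 3 each, and the promoters of MT1E and MT1F were not analysed here. Of 35116 RefSeq promoters, 24.8% had at least 1 match in the same window, 0.37% had at least 4 and 0.0513% had at least 6. MT2A also held 1 match to the AP-1 motif TGAGTCA or TGACTCA, from base -104 to base -98 counted from the start, and 4.2% of promoters had such a match, and MT1X held none. A TATA motif, TATAAA on either strand, lay in both promoters and in 10.7% of all. None of these motif searches overlapped another in these 2 promoters. A match describes the letters only and does not show binding.

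**Figure D1:**
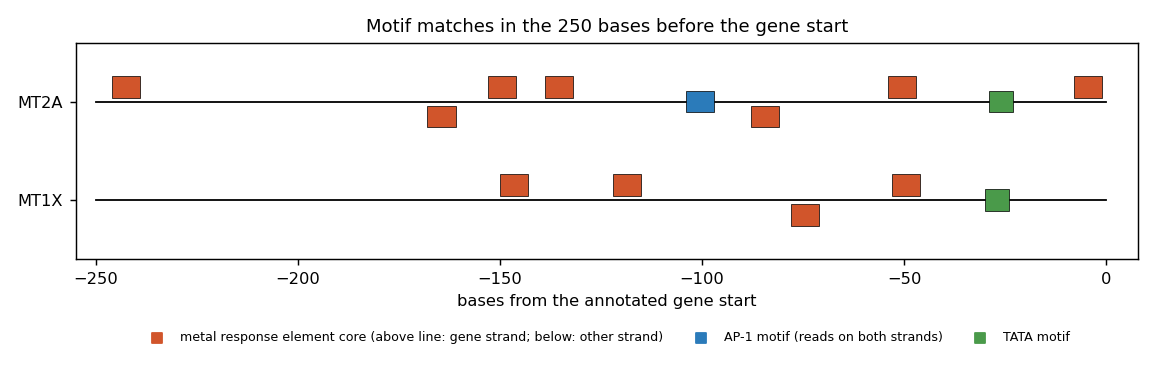
Positions of motif matches in the 250 bases before the annotated start of MT2A and MT1X, with distance from the start in bases on the x axis. Boxes are matches to the metal response element core (7 in MT2A, 4 in MT1X), the AP-1 motif (1 in MT2A) and the TATA motif (1 in each).

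Signals are log2 values as deposited, and a difference of 1 is a doubling. A probe set was tested if it exceeded the 40th percentile of an array on 3 or more of the 9 arrays, and 33376 did. All 4 genes passed this filter on all 9 arrays. Array medians ran from 3.13 to 3.22. Changes were tested with limma over all 3 groups, p-values were adjusted (Benjamini-Hochberg) over all 33376, and the threshold was 0.05. Errors after a change are standard errors, and errors after a level are SDs over 3 arrays. The GPR39 probe set read between 2.43 and 2.65 on every array, below the filter, so the overexpression in the label was not measured here. Whether its probes match the introduced sequence is not known from the labels. Over all probe sets, the mean Pearson's r of mock replicate 1 was 0.988 with the GPR39 arrays and 0.985 with its own group, and values without it are given below. All 10 named HEK293 markers lay above the 40th percentile on every array. Of 3 named fibroblast markers, DCN and LUM lay below it on every array and THY1 above it on all 9 (3.19 to 3.51). Of 7 named hepatocyte markers, ALB and APOB lay below it on every array, APOA1 (up to 4.18) and TTR (4.24 to 4.57) above it on all 9, and AHSG, TF and FGB above it on 4, 3 and 1. No fibroblast or hepatocyte marker that was tested passed in any comparison. Of 5 named leukocyte markers, 3 lay above it on every array and 1 passed, CD68, a lysosomal protein that is not restricted to leukocytes. CD68 ran from 6.41 to 6.81 in mock, from 7.52 to 7.59 in the GPR39 arrays and from 7.75 to 7.98 in the agonist arrays. It passed in both comparisons with mock (limma adjusted p = 0.0124 and 0.0004), where 1.17% and 15.0% of all probe sets passed. The summed level of the 5 ran from 17.44 to 17.97, from 18.9 to 19.68 and from 19.69 to 20.2, and without CD68 from 10.92 to 11.16, from 11.31 to 12.1 and from 11.94 to 12.22. Over the 10 HEK293 markers the sum ran from 65.93 to 67.14, from 64.87 to 65.39 and from 63.56 to 64.54. In GPR39 against mock 1 of them was lower, where 0.422% of all probe sets were called lower. It was IRS4, at 10.49 to 10.58 in mock and 9.5 to 9.55 in the GPR39 arrays (limma adjusted p = 0.0162). Changes of the 10 there ran from -1.03 to 0.27, with a median of -0.09. In agonist against GPR39, 1 was higher and 2 lower, where 3.12% and 5.95% of all were. Against mock, 1 was higher and 4 lower with the agonist, where 6.11% and 8.94% of all were. The part of these differences in the results was not tested. In bulk RNA, fewer cells with a transcript and less of it per cell cannot be told apart.

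With the agonist, MT2A was higher and MT1F was lower than in either other group, and MT1X and MT1E did not pass the threshold in any comparison. MT2A, the main human metallothionein of many cell types, read 6.83, 6.51 and 6.69 in mock, 6.80, 6.72 and 6.82 in the GPR39 arrays and 7.32, 7.46 and 7.52 in the agonist arrays. The 3 agonist arrays were the highest 3 of the 9, and the mock and GPR39 arrays overlapped. MT1F, a member of the same family with the same metal-binding role, read 6.06, 6.09 and 5.87 in mock, 6.17, 6.19 and 5.86 in the GPR39 arrays and 4.96, 5.52 and 5.33 in the agonist arrays. Here the 3 agonist arrays were the lowest 3 of the 9, and agonist replicate 1 was the lowest of all.

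MT1X, which also encodes a widely expressed metallothionein, read 8.67, 8.50 and 8.39 in mock, 8.07, 8.27 and 8.15 in the GPR39 arrays and 8.42, 8.53 and 8.60 in the agonist arrays. The GPR39 arrays were the lowest 3, with no overlap with either other group, and mock and agonist arrays lay over each other. MT1E, another member of the cluster, read 3.39, 2.75 and 3.39 in mock, 2.71, 3.39 and 3.69 in the GPR39 arrays and 3.62, 3.39 and 3.42 in the agonist arrays. Its groups overlapped throughout, and 7 of its 9 values lay above the median of their array.

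**Figure D2:**
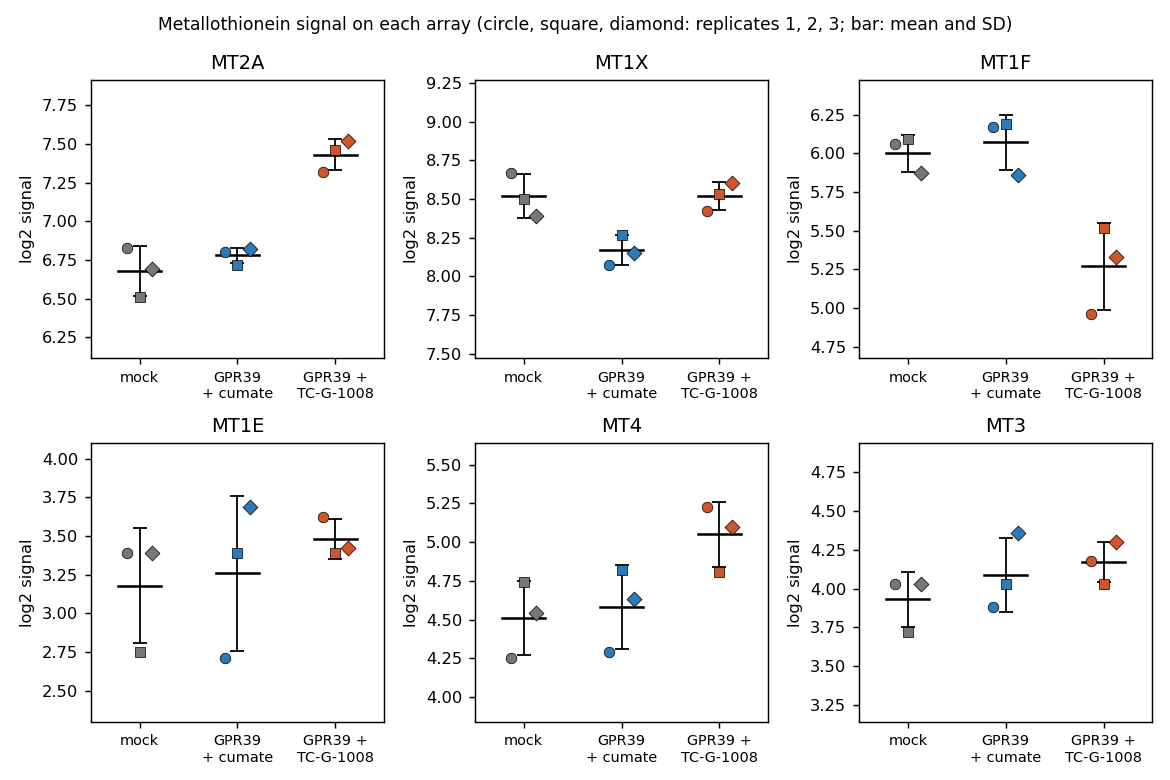
Log2 signal (y axis) of 6 metallothionein genes on each of the 9 arrays by group (x axis), with the mean and SD of 3 arrays, each panel spanning the same height. MT2A is highest on the agonist arrays (7.32 to 7.52), MT1F is lowest there (4.96 to 5.52), and MT1X is lowest on the GPR39 arrays (8.07 to 8.27).

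MT1E had the largest standard error of a change among the 4, 0.26, against 0.16 for MT1F and 0.10 for MT1X and MT2A. By group, its SD over mock, GPR39 and agonist arrays was 0.37, 0.50 and 0.13, and that of MT1F was 0.12, 0.18 and 0.28. MT1X had 0.14, 0.10 and 0.09, and MT2A 0.16, 0.05 and 0.10. The spread of MT1E was thus widest in mock and GPR39 arrays, and that of MT1F in agonist arrays. Exactly the same MT1E value, 3.39, stood on 4 arrays, namely mock replicates 1 and 3, GPR39 replicate 2 and agonist replicate 2. MT3 repeated 1 value, 4.03, on the same 4 arrays. A value repeated on at least 4 arrays occurred in 10.9% of the tested probe sets, and in 20 of them on exactly these 4 arrays. How such ties arose was not tested, and the spread of a tied gene rests on fewer distinct values.

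The first comparison, GPR39 against mock, asks what goes with the receptor label and cumate, which these arrays cannot separate. No metallothionein of the 4 passed in limma after adjustment, and 1, MT1X, had an unadjusted p under 0.05. Over all probe sets 1.17% passed, 0.749% higher and 0.422% lower. The arrays of the groups did not overlap for 1 of the 4 genes, MT1X, and for 20.7% of all probe sets. MT1X read 8.52 ± 0.14 in mock and 8.17 ± 0.10 in the GPR39 arrays (SD, n = 3), a change of -0.35 ± 0.10 (95% interval from -0.57 to -0.13, limma adjusted p = 0.151). For the other 3 genes the intervals give how large a change these arrays still allow. MT2A changed by 0.10 ± 0.10, with an interval from -0.12 to 0.32, MT1F by 0.07 ± 0.16, from -0.29 to 0.42, and MT1E by 0.09 ± 0.26, from -0.52 to 0.69. An increase of MT2A above 0.32 lies outside its interval, whereas the MT1E interval is the widest of the 4. Without mock replicate 1, MT1X changed by -0.28 (limma adjusted p = 0.174) and MT2A by 0.18 (limma adjusted p = 0.363). Again none of the 4 passed, although 1324 of 33105 probe sets then did, against 391 of 33376 with all arrays. The median change of the 4 genes was 0.08, against 0.01 over all probe sets.

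The second comparison, agonist against GPR39, asks what goes with TC-G-1008 in cells that carry the receptor label, with cumate given in the labels of the GPR39 group only. MT2A rose from 6.78 ± 0.05 to 7.43 ± 0.10 (SD, n = 3), a log2 change of 0.65 ± 0.10 or 1.57-fold (95% interval from 0.43 to 0.87, limma adjusted p = 0.00576). MT1F fell from 6.07 ± 0.18 to 5.27 ± 0.28, a change of -0.80 ± 0.16, which leaves 0.57 of the GPR39 signal (interval from -1.16 to -0.45, limma adjusted p = 0.0173). MT1X was 0.35 ± 0.10 higher in the agonist arrays (interval from 0.13 to 0.57) and did not pass, with limma adjusted p = 0.062. MT1E had a difference of 0.21 ± 0.26 (interval from -0.39 to 0.82). Of the 4 genes, 2 passed, where 9.06% of all probe sets did, 1 higher (3.12% of all) and 1 lower (5.95% of all). The arrays of the 2 groups did not overlap for 3 of the 4, against 29.9% of all probe sets. The median change of the 4 was 0.28, against 0.01 over all, but it lies between changes of opposite sign.

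Within all tested changes of this comparison, 96.7% of probe sets had a smaller log2 change than MT2A and 0.9% had a more negative one than MT1F. The MT1F call was lost without GPR39 replicate 1 (limma adjusted p = 0.0651, change -0.76) and without GPR39 replicate 2 (limma adjusted p = 0.0667, change -0.74), while MT2A passed without any 1 array (limma adjusted p from 0.00555 to 0.0296). MT1X passed without mock replicate 1 (limma adjusted p = 0.0453), an array that takes no direct part in this comparison but enters the filter and the shared spread. It also passed with a stricter filter on dim probe sets (limma adjusted p = 0.0446) and with a trended, robust variance (limma adjusted p = 0.0332), at the same change of 0.35.

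**Figure D3:**
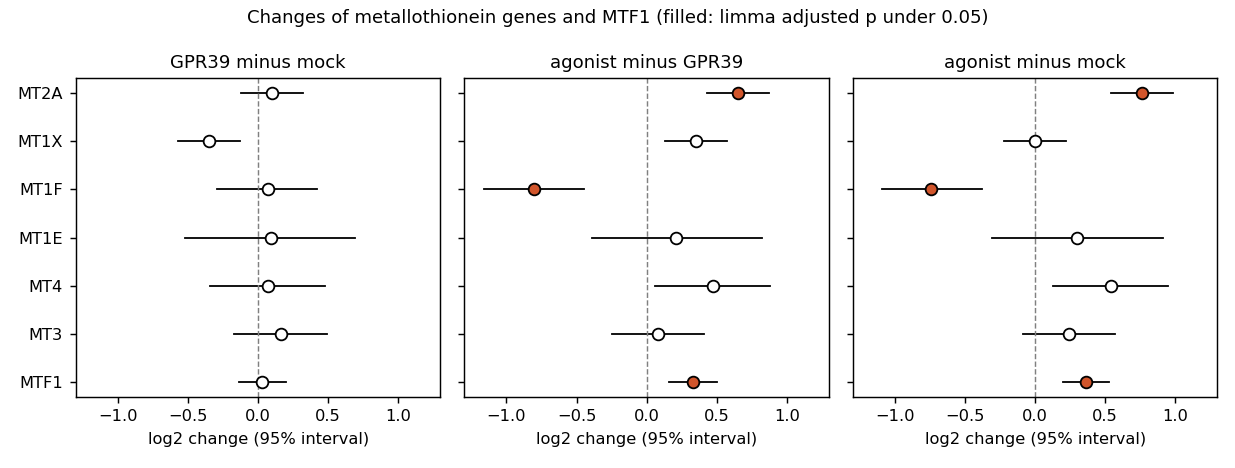
Log2 changes (x axis) with 95% intervals of 6 metallothionein genes and MTF1 in the 3 comparisons, filled where limma adjusted p was under 0.05. With the agonist, MT2A lies at 0.65 and 0.76 and MT1F at -0.80 and -0.74, on opposite sides of 0.

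The third comparison, agonist against mock, gives the combined difference and shares arrays with both others, so its values are not separate evidence. MT2A was 0.76 ± 0.10 higher, or 1.69-fold (interval from 0.54 to 0.98, limma adjusted p = 0.0015), and MT1F was lower, with a change of -0.74 ± 0.16 (interval from -1.09 to -0.38, limma adjusted p = 0.0155). The MT1F call was lost without mock replicate 2 (limma adjusted p = 0.0574, change -0.69). Without mock replicate 1, MT2A stood 0.83 higher (limma adjusted p = 0.0021) and MT1F changed by -0.71 (limma adjusted p = 0.0427). MT1X had the same mean in both groups, 8.52, with an interval from -0.22 to 0.22. MT1E differed by 0.30 ± 0.26 (interval from -0.31 to 0.91). In this comparison 2 of the 4 passed, 1 higher and 1 lower, beside 15.0% of all probe sets, 6.11% higher and 8.94% lower. The groups did not overlap for 2 of the 4 and for 31.0% of all.

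**Figure D4:**
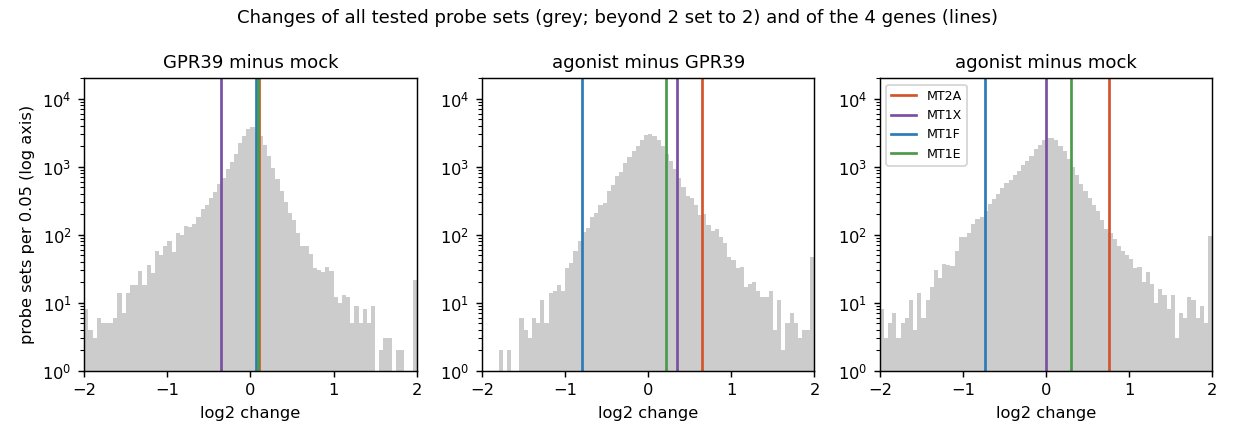
Number of tested probe sets (y axis, log scale) by log2 change (x axis) in the 3 comparisons, with lines at the changes of the 4 genes. In agonist minus GPR39, MT2A lies above 96.7% of all changes, and 0.9% of all changes lie below MT1F, while in GPR39 minus mock MT1E, MT1F and MT2A lie between 0.07 and 0.10.

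The order of groups therefore differed from gene to gene. For MT2A it was agonist above GPR39 and mock, and the last 2 did not differ beyond their spread. For MT1F it was GPR39 and mock, again not separated, above the agonist group. For MT1X it was mock and agonist level with each other above GPR39, a gap between array ranges that did not pass after adjustment. For MT1E no order can be given.

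Metallothionein genes are related copies with similar sequences, and array probes may not separate them fully. A signal named for 1 of them can therefore hold some of another, and the share was not measured here.

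Of the wider family, 11 genes had a named probe set and 6 of them were tested. MT1B, MT1G, MT1H, MT1L and MT1M lay too low to pass the filter, with values between 1.22 and 3.01 over all arrays. MT1L is a pseudogene, and the other 4 encode metallothioneins. MT4 read 4.25, 4.74 and 4.54 in mock, 4.29, 4.82 and 4.63 in the GPR39 arrays and 5.23, 4.81 and 5.10 in the agonist arrays. Its agonist arrays all lay above mock and overlapped GPR39. It stood 0.47 ± 0.18 above GPR39 (limma adjusted p = 0.157) and 0.54 ± 0.18 above mock (limma adjusted p = 0.0839), and passed against mock only when arrays were centred on their 75th percentile (limma adjusted p = 0.048). MT3, the brain-enriched member, differed by 0.08 ± 0.14 and 0.24 ± 0.14 in the same comparisons and did not pass. Neither MT3 nor MT4 passed in GPR39 against mock.

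MTF1, the transcription factor that turns on metallothionein genes when zinc rises, was measured well above the array medians. It read 8.09, 8.01 and 8.13 in mock, 8.08, 8.14 and 8.11 in the GPR39 arrays and 8.52, 8.33 and 8.48 in the agonist arrays. The agonist arrays were again the highest 3. MTF1 rose by 0.33 ± 0.07 against GPR39 (1.26-fold, limma adjusted p = 0.0291) and by 0.36 ± 0.07 against mock (limma adjusted p = 0.0129). The first call was lost without any 1 of 5 arrays, GPR39 replicates 1, 2 and 3 and agonist replicates 1 and 3, with limma adjusted p up to 0.0968, and the second was kept without any 1 array (up to 0.0486). Both were lost when only the 2 groups compared were fitted (limma adjusted p = 0.0559 and 0.0519). MTF2, a Polycomb-associated protein first named for binding metal response elements, read 8.50 ± 0.10, 8.57 ± 0.02 and 8.64 ± 0.05 in mock, GPR39 and agonist arrays and did not pass in any comparison.

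The list of genes for metal-responsive transcription held 9 tested members of 10. None passed in GPR39 against mock, 1 rose with the agonist against GPR39 (MTF1), and 2 rose against mock, MTF1 and NFE2L2, which encodes the stress regulator NRF2, at 0.56 ± 0.10 (limma adjusted p = 0.00751). Over all probe sets 0.749%, 3.12% and 6.11% were called higher in these comparisons, and 1.17%, 9.06% and 15.0% passed in either direction. The counts of 1 and 2 of 9 were not tested against these shares. The list medians were 0.04, 0.08 and 0.13, beside 0.01, 0.01 and 0.02 over all probe sets. The zinc exporter family SLC30 and the zinc importer family SLC39, which move zinc out of and into the cytosol, had no named probe set and were not analysed here.

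Copper and iron handling was covered by 3 named genes of 15, the copper chaperone genes ATOX1, CCS and COX17. No iron gene of the list had a named probe set, so iron handling was not analysed here. COX17, a copper chaperone for the respiratory chain, rose in GPR39 against mock, from 4.17 ± 0.10 to 4.69 ± 0.10 (SD, n = 3; change 0.52 ± 0.09, limma adjusted p = 0.0356), and was 0.34 ± 0.09 higher in agonist than in mock (limma adjusted p = 0.0378). CCS, the copper chaperone for superoxide dismutase, fell from 4.92 ± 0.17 in mock to 4.52 ± 0.10 with the agonist (change -0.40 ± 0.10, limma adjusted p = 0.0286). None of the 3 passed in agonist against GPR39, where their median was -0.23. The counts passed, 1, 0 and 2 of 3, stand beside 1.17%, 9.06% and 15.0% of all probe sets, and medians over all were 0.01, 0.01 and 0.02. Each COX17 call was lost in 7 of 9 fits that leave out 1 array, with limma adjusted p up to 0.144 in GPR39 against mock, where it was kept without mock replicate 1 or agonist replicate 2, and up to 0.1 in agonist against mock, where it was kept without mock replicate 2 or GPR39 replicate 1. The CCS call was lost without mock replicate 2 or 3 or any 1 agonist array (limma adjusted p up to 0.0871).

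Of 6 tested NRF2 and heavy-metal stress genes of 13, none passed in GPR39 against mock. SQSTM1, a selective autophagy receptor, rose by 0.40 ± 0.09 in agonist against GPR39 (limma adjusted p = 0.0288), from 6.31 on each of the 3 GPR39 arrays to 6.66, 6.66 and 6.81. This call was lost without any 1 of the 6 arrays compared (limma adjusted p up to 0.0893). Against mock, SQSTM1 was 0.64 ± 0.09 and the thioredoxin reductase gene TXNRD1 0.52 ± 0.08 higher (limma adjusted p = 0.00239 and 0.00305). The counts of 0, 1 and 2 of 6, all higher, stand beside 0.749%, 3.12% and 6.11% of all probe sets called higher. In either direction 1.17%, 9.06% and 15.0% of all passed. Medians of the list were 0.16, 0.17 and 0.37, and those of all probe sets 0.01, 0.01 and 0.02. HMOX1, the haem oxygenase gene that cadmium and oxidants induce, was among the tested members and did not pass in any comparison.

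Glucocorticoid-responsive genes, taken because glucocorticoids also induce metallothioneins, had 8 tested members of 10. In GPR39 against mock 3 rose, ERRFI1, a feedback inhibitor of the EGF receptor, by 0.72 ± 0.08, the kinase gene SGK1 by 0.57 ± 0.09 and the MAP kinase phosphatase gene DUSP1 by 0.40 ± 0.07 (largest limma adjusted p = 0.033), where 0.749% of all probe sets were called higher. ERRFI1 lost its call without GPR39 replicate 3 (limma adjusted p = 0.0545), SGK1 lost it in 7 of 9 such fits, all but those without mock replicate 1 or 3 (limma adjusted p up to 0.129), and DUSP1 in 8, all but that without mock replicate 1 (up to 0.137). In agonist against GPR39, DUSP1 rose by 1.34 ± 0.07 and CRISPLD2, a secreted protein gene, by 1.09 ± 0.19 (limma adjusted p = 3.24e-05 and 0.0111), 2 of 8 where 3.12% of all were called higher. Against mock 5 rose and 1 fell, where 6.11% and 8.94% of all did, with CRISPLD2 at 1.86 ± 0.19, DUSP1 at 1.74 ± 0.07, ERRFI1 at 0.99 ± 0.08 and SGK1 at 0.87 ± 0.09. DUSP1 and ERRFI1 are also known targets of growth factor signalling. The list medians were 0.32, 0.23 and 0.61, beside 0.01, 0.01 and 0.02 over all probe sets. The genes named are the passing ones with the smallest p, and not all members rose. Over the 8 tested members, changes ran from -0.28 to 0.77, from -0.34 to 1.34 and from -0.62 to 1.86 in these comparisons.

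Heat-shock genes, which toxic metals induce together with metallothioneins, had 7 tested members of 11. None passed in GPR39 against mock. In agonist against GPR39 none rose and 3 fell, the HSP70 genes HSPA1A and HSPA1B by 0.46 and 0.45 on the log2 scale and the small heat-shock gene HSPB1 by 0.32 (limma adjusted p = 0.00531, 0.0049 and 0.0416), where 3.12% of all probe sets rose and 5.95% fell. HSPA1A and HSPA1B are near-identical copies and amount to 1 observation, although the counts and medians of this list hold both. HSPB1 lost its call in 8 of 9 fits without 1 array, all but that without GPR39 replicate 3 (limma adjusted p up to 0.121), and with the arrays centred on their 75th percentile (limma adjusted p = 0.0612) or quantile normalized (0.0619). Against mock, BAG3, a co-chaperone, and HSPH1, an HSP110 chaperone, rose by 0.48 ± 0.07 and 0.28 ± 0.06 (limma adjusted p = 0.00335 and 0.024) while HSPA1A and HSPA1B fell by 0.46 and 0.47, 2 of 7 each way, where 6.11% of all probe sets rose and 8.94% fell. The HSPH1 call was lost without mock replicate 2, agonist replicate 1 or agonist replicate 2 (limma adjusted p up to 0.0819). The medians were 0.20, -0.13 and 0.26, beside 0.01, 0.01 and 0.02 over all probe sets.

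The genes most like each metallothionein over the 9 arrays were looked up among 7396 named genes whose mean lay above the median of tested values, 4.60, with Pearson's r as a description. The arrays are 3 groups of 3, so for a gene whose groups lay apart a high r mostly repeats the order of the groups. The groups of MT1E overlapped, and its r also follows differences between arrays of the same group. For MT2A they were CD24 (r = 0.988), a cell surface glycoprotein, TRIB1 (0.988), a pseudokinase, and PMAIP1 (0.987), the pro-apoptotic NOXA. All 3 had their highest mean with the agonist, TRIB1 at 5.59 ± 0.12, 5.87 ± 0.07 and 6.99 ± 0.11 in mock, GPR39 and agonist arrays (SD, n = 3). For MT1F they were PLPP6 (0.979), a lipid phosphatase, UROS (0.972), a haem synthesis enzyme, and PINK1 (0.967), a mitochondrial kinase, all lowest with the agonist, PLPP6 at 6.52 ± 0.08, 6.64 ± 0.14 and 5.90 ± 0.16. For MT1X they were HS3ST3B1 (0.930), a heparan sulfate sulfotransferase, KLF9 (0.904), a glucocorticoid-responsive transcription factor, and RBBP7 (0.904), a histone-binding protein, all lowest in the GPR39 arrays, KLF9 at 6.47 ± 0.13, 6.21 ± 0.12 and 6.39 ± 0.07. For MT1E they were LRTM2 (0.965), FSTL3 (0.941), an activin-binding protein, and NACA2 (0.925), whose group means were 5.24 ± 0.29, 5.38 ± 0.33 and 5.62 ± 0.06.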

How the data were processed

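RNA of 9 HEK293 samples, 3 in each of 3 groups, was labelled with biotin and read on Affymetrix arrays of 1 colour, per the labels' protocols. The authors deposited log2 signals per probe set (scale judged from the values), for which the submitters' processing notes name MAS5 alone. Background correction, normalization, log step and version: not given in the sources used here. Output of MAS5 is usually linear, and the step to log2 is unknown. Groups come from sample titles. The table holds 53617 probe sets, 16098 with 1 gene symbol, 0 with several and 37519 with none; symbols were updated by Entrez identifier to RefSeq of GRCh38.p14 (16098 matched). Arrays give no read depth, and their number limits the precision.

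Values were used as deposited, without a pseudocount. Probe sets above the 40th percentile in at least 3 arrays were fitted in limma 3.58.1 (R 4.3.3) with lmFit and eBayes, over all 9 arrays, with 6 residual and 2.12 prior degrees of freedom, two-sided, with Benjamini-Hochberg adjustment and a threshold of 0.05. The scripts were tested on simulated data. Named genes are all metallothioneins, GPR39, per list and comparison up to 4 passing members, by smallest p, and the 3 genes most correlated with each of the 4. MTF2, HMOX1 and the marker genes given were named after their values were seen or as list members. The 4 genes and the lists were chosen with earlier results of these data known. With several probe sets for a gene, the one with the highest mean was used. The alternatives were 2 other normalizations, 2 other filters, the variance model, array weights, only the 2 groups compared, a replicate block, no repeated rows, and leaving out each array.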

Additional observations from a re-analysis of the deposited data

How the results depend on the processing

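For the 4 genes, each comparison was repeated under 18 alternatives, 9 of them leaving out 1 array. MT2A passed against GPR39 and against mock under all of them, with changes from 0.61 to 0.71 and from 0.68 to 0.83. MT1F kept its direction in both, from -0.93 to -0.65 and from -0.86 to -0.58, and lost its call only in the 3 leave-one-out fits named above. In those fits 1589 of 33100 and 1537 of 33131 probe sets passed against GPR39, and 3510 of 33067 against mock. Leaving out 1 array, the number of the 4 past the threshold ran from 0 to 0 in GPR39 against mock, from 1 to 3 in agonist against GPR39 and from 1 to 2 in agonist against mock; the other alternatives gave 0, 2 or 3, and 2. Deviations from the group means of same-numbered arrays correlated between -0.101 and 0.065, and those of differently numbered arrays between -0.129 and 0.119. The labels do not say whether a replicate number marks a shared culture or day, and these correlations cannot exclude it. With the replicate number as a block the counts were 0, 2 and 2. Over all probe sets 150, 1819 and 3955 of 33376 then passed, against 391, 3025 and 5022 in the main fit. With no filter 301, 2331 and 4193 of 53617 passed, and with only the 2 groups compared 190, 2604 and 3133 of 33376. Under the block, MT2A had limma adjusted p = 0.0238 and 0.00786 in the 2 agonist comparisons and MT1F 0.0345 and 0.0265. Among other named genes the block ended the calls of COX17, SGK1 and DUSP1 in GPR39 against mock, of MTF1, SQSTM1 and HSPB1 in agonist against GPR39, and of HSPH1 in agonist against mock. With no filter on dim probe sets, COX17 in both of its comparisons, DUSP1 in GPR39 against mock and HSPB1 lost their calls. With only the 2 groups compared in the fit, calls ended for COX17, SGK1 and DUSP1 in GPR39 against mock, MTF1 and HSPB1 in agonist against GPR39, and MTF1, CCS, COX17 and HSPH1 in agonist against mock; COX17 in the last also lost its call with a trended variance or array weights. Alternatives for genes other than the 4 were chosen after seeing the data. Signs turned only for differences that never passed. MT1X in agonist against mock, at -0.0003, became 0.0704 with 75th percentile centring and 0.0109 with array weights, and ran from -0.0659 to 0.0754 without 1 array. Without 1 array, MT1E ran from -0.13 to 0.37 in GPR39 against mock and from -0.065 to 0.43 in agonist against GPR39, MT1F in GPR39 against mock from -0.0013 to 0.17, MT4 there from -0.0593 to 0.21, and MT3 in agonist against GPR39 from -0.023 to 0.21. The cause was not tested. MT1E and MT3 lie below 4.60, the median of tested values, and both were still tested under the stricter filter.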
